A study of Homo sapiens with 4 samples.

Results

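Nuclear pore proteins and the receptors that carry cargo through the pore were followed in SCC-15, a human cell line derived from a squamous carcinoma of the tongue, after transfection of a microRNA mimic. Members were every probe set that the platform annotation assigns to exactly 1 gene whose current symbol starts with NUP and a digit, KPNA or KPNB and a digit, or is TPR, RAE1, SEH1L, SEC13, RANBP2, NDC1, POM121, AAAS, XPO1, XPO7, IPO5, IPO7, IPO8, IPO9, CSE1L or RAN. The rule found 144 probe sets of 47 genes, out of 49293 probe sets on the array. No measured value entered the rule. The 2 mimic arrays came from SCC-15 cells given a mimic at 30 nM, which the labels of both samples call miR-585-5p and the series title and design text call miR-762. The 2 control arrays came from SCC-15 cells given miR-NC, the negative control, also at 30 nM. In both groups transfection followed seeding by 24 h, and cells were harvested 36 h later. The labels do not say that the 2 samples of a group were separate cultures, so every p-value rests on array-to-array spread that could be technical, and all results concern 1 cell line.

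The nuclear pore is a ring-shaped channel through the nuclear envelope. Its scaffold is built from the Y complex and the inner ring, it is anchored by transmembrane nucleoporins, and its central channel is filled with nucleoporins rich in phenylalanine and glycine repeats. Importins and exportins ferry proteins and RNA through that channel, and the GTPase Ran sets the direction by loading and unloading them. In a proliferating carcinoma line the envelope and its pores are taken apart and rebuilt at each mitosis, and new pores are added in interphase.

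The mature sequences of both microRNAs named in the sources are shown because the sources do not settle which was transfected. They were taken from the RefSeq annotation of GRCh38.p14, and capitals mark the seed, bases 2 to 8.
hsa-miR-585-5p: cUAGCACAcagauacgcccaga
hsa-miR-762: gGGGCUGGggccggggccgagc
The seeds differ, and no value below depends on which name is right. The miR-585-5p sequence lies at chr5:169263649-169263670 on the minus strand, and that of miR-762 at chr16:30893951-30893972 on the plus strand.

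The windows around the transcription start of the 2 members with the largest differences, NUP37 and SEH1L, and of XPO1 are shown next, each with 250 bases before and 50 after the start, from RefSeq. Capitals mark matches, on either strand, to CCAAT, the letters of the NF-Y box, to TTTGAA or TTCGAA, the core letters of the cell cycle homology region, or to TTTGGCGC, TTTCCCGC, TTTGCCGC or TTTCGCGC, letters of E2F sites.
NUP37: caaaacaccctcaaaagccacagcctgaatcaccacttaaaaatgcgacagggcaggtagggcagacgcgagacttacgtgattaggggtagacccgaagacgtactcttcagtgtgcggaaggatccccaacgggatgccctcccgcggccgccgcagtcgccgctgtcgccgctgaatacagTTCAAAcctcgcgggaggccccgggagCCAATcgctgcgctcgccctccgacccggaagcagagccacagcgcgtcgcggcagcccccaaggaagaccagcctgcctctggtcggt
SEH1L: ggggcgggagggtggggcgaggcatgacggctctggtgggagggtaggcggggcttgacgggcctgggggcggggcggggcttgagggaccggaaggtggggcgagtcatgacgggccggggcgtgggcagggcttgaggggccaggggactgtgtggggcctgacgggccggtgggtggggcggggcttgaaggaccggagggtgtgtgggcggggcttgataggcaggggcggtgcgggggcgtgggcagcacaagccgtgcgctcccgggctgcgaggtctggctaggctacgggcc
XPO1: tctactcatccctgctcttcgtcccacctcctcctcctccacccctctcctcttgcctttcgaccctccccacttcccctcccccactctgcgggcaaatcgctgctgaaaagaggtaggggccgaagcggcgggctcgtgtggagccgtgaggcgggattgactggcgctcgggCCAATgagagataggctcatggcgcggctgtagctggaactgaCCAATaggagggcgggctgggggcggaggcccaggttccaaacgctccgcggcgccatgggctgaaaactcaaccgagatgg
The NUP37 window is chr12:102120065-102120364 (minus strand), that of SEH1L chr18:12947761-12948060 (plus strand) and the XPO1 window shown, 1 of 2 listed for that gene, chr2:61538307-61538606 (minus strand). NUP37 held a cell cycle homology match 66 bases and a CCAAT match 39 bases before the start. The XPO1 window shown held CCAAT 75 and 32 bases before the start. The other XPO1 window and the SEH1L window held none of the searched letters. XPO1 was not picked by size: NUP155, NUP58, NUP153 and SEC13 had larger differences and windows that are not shown. Of these, NUP155 held an E2F match, NUP153 a cell cycle homology match, and NUP58 and SEC13 none. Of the 47 member genes, 40 had a window, 50 windows in all. CCAAT was found in 44% of member windows, in 25% of the 16 windows of members that rose, and in 34.3% of the 16623 windows of all genes tested. The cell cycle homology letters were in 26% of member windows, in 18.8% of windows of members that rose and in 12.4% of windows of all genes tested. For the E2F letters these shares were 4%, 6.25% and 4.45%. In all 35116 windows of the table the shares were 34.6%, 16.4% and 3.31%. These are matches of letters only, windows of a gene with several starts can overlap, and the matches printed above do not overlap each other.

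Values are log2 of the deposited RMA intensity, and every difference is mimic minus control. Each gene was represented by its brightest probe set over all arrays, and probe sets in the lowest 30% by mean level over all arrays (under 2.83 on the log2 scale) were not tested. Of the members, 46 of 47 genes and 134 of 144 probe sets were tested. The gene not tested was NUP210L, a relative of the transmembrane nucleoporin NUP210, whose only probe set was at 2.42 and 2.27 in the mimic arrays and 2.39 and 2.65 in the control arrays. The median array intensity was between 17.2 and 17.5. Of 15 markers of squamous epithelium, 12 were tested, with a mean log2 level of 10.12 and 10.15 in the mimic arrays and 9.89 and 9.82 in the control arrays, and 5 of them rose. Of 18 markers of other cell types, 12 were tested. PTPRC, MLANA, COL3A1, DCN and LUM lay in the dim range, and the mean levels of the tested ones over the 4 arrays were 3.86 to 4.12 for fibroblasts, 4.14 to 4.32 for endothelium and 4.21 to 4.45 for melanocytes. The 3 tested leukocyte markers averaged 4.96 and 4.93 in the mimic arrays and 4.75 and 4.58 in the control arrays. CD14 and CD68, of that list, rose by 0.53 and 0.34, and the part of these markers in the results was not tested.

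Of the 46 member genes tested, 16 rose, 2 fell and 28 did not pass (limma, Benjamini-Hochberg adjusted p under 0.05 over all 14340 genes). As shares, 34.8% of members rose and 4.35% fell, against a background of 17.7% and 12.3% over all genes, and 39.1% of members were called in either direction, against 30.1%. The difference was positive in 39 of 46 members and in 6709 of the 14340 genes tested. The median was 0.14 over the members and -0.02 over all genes tested. The arrays of both groups did not overlap in 29 members with mimic above control (63.0%, against 34.2% of all genes) and in 6 with mimic below control (13.0%, against 36.3%), where 70.4% of all genes did not overlap in one direction or the other. Of the 31 tested structural genes, limma called 11 higher and 0 lower, and 0 of them were lower at an unadjusted p under 0.05. Of the 15 receptor and Ran genes, 5 rose and 2 fell. Most of the called differences were small. With a difference of 0.5 or more in size, 3 of 46 members were called, against 1493 of 14340 genes (10.4%). By 2-fold or more, 2 of 46 members rose, against 296 of 14340 genes (2.06%). The first member share was below that of all genes, and the second, which rests on 2 genes, was above it. With a further quantile normalization of the deposited values, 12 members were higher and 4 lower, 27 of 46 differences were positive, and the medians were 0.04 over the members and -0.07 over all genes. The 4 lower members were KPNA5, KPNA6, KPNA7 and the structural gene NUP42. The same normalization gave 2057 genes higher and 2620 lower over the whole table, where 2544 and 1766 had been called. Without mimic replicate 1 or mimic replicate 2, limma called 0 members, as it called 0 of all genes, and 15 and 17 members had an unadjusted p under 0.05. SEH1L and NUP37 passed without control replicate 1, and without control replicate 2, KPNB1 passed as well.

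**Figure D1:**
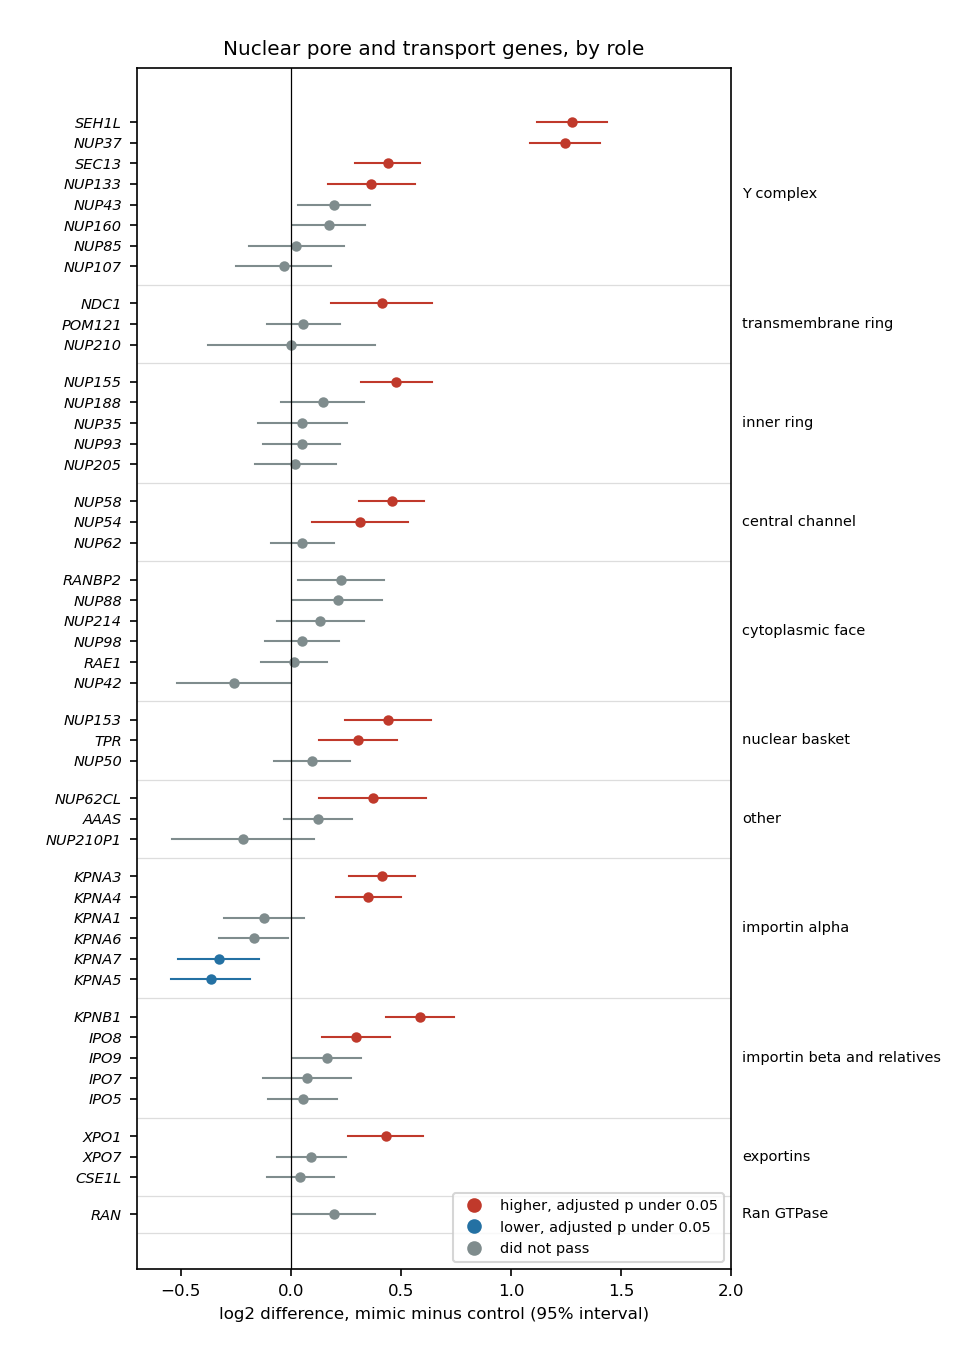
Log2 difference, mimic minus control, of the 46 tested member genes, grouped by role, with points for the limma estimate and lines for its 95% interval. SEH1L and NUP37 stand at 1.28 and 1.25, KPNB1 at 0.59, and the importin alpha genes lie on both sides of 0.

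Genes of the Y complex, the scaffold that lines the outer faces of the pore, held the largest differences. The test called 4 of the 8 genes higher and 0 lower, where 17.7% of all genes tested were called higher and 12.3% lower. The median difference of the 8 genes was 0.28, against -0.02 over all genes tested. SEH1L, a Y complex subunit that also belongs to the amino acid sensing complex GATOR2, was at 8.22 and 8.29 in the mimic arrays, against 6.95 and 7.01 in the control arrays. Both mimic arrays were more than 1 log2 unit above both controls, and the difference was 1.28 ± 0.062 (SE), 2.42-fold (limma adjusted p = 0.00112). Its other probe set, at a mean of 4.24 in the mimic arrays, gave 0.31 and did not pass (adjusted p = 0.0907 over all probe sets).

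NUP37, a small propeller subunit at the edge of the Y complex, was at 6.27 and 6.36 in the mimic arrays, against 5.07 and 5.07 in the control arrays. The difference was 1.25 ± 0.062 (SE), 2.37-fold (limma adjusted p = 0.00112). Both of its probe sets rose, by 1.25 and 1.23. SEH1L and NUP37 were called in each of the 8 alternatives other than leaving out an array, and lost the call without either mimic array, as did every gene. The lowest value of NUP37 over the 12 alternatives was 1.16, whereas SEH1L reached 0.79 with the median over probe sets.

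SEC13, which serves the Y complex, the GATOR2 complex and the COPII coat of secretory vesicles, was at 9.38 and 9.34 in the mimic arrays and at 8.92 and 8.92 in the control arrays, a difference of 0.44 ± 0.057 (SE; limma adjusted p = 0.00745). Of its 4 probe sets 3 rose, by 0.44, 0.46 and 0.56, and its remaining probe set, the one that is neither _s_at nor _x_at, was at -0.17 and did not pass. NUP133, a stalk subunit, was at 5.88 and 5.79 in the mimic arrays and at 5.40 and 5.54 in the control arrays, and rose by 0.37 ± 0.076 (limma adjusted p = 0.0249). The scaffold subunits NUP160 (0.17), NUP85 (0.03) and NUP107 (-0.03) did not pass. NUP43, a propeller subunit like NUP37, gave 0.20 in its brightest probe set, which did not pass, while 1 of its 3 dimmer tested probe sets rose, by 0.64.

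Among the 3 transmembrane nucleoporins, which fix the pore in the membrane, NDC1 rose and POM121 (0.06) and NUP210 (0.00) did not pass. NDC1 was at 8.53 and 8.48 in the mimic arrays and at 7.98 and 8.20 in the control arrays, a difference of 0.41 ± 0.089 (SE; limma adjusted p = 0.0278). All 3 NDC1 probe sets rose, the other two by 0.32 and 0.33. POM121 has near-identical copies, so its probe set may not separate them.

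The inner ring, which links the scaffold to the membrane and the channel, had 1 gene of 5 that rose (20.0%, near the 17.7% of all genes). NUP155 was at 6.63 and 6.67 in the mimic arrays and at 6.13 and 6.21 in the control arrays, a difference of 0.48 ± 0.062 (SE; limma adjusted p = 0.00749). The groups were well apart for this gene, which had 1 probe set. NUP188 (0.14), NUP35 (0.05), NUP93 (0.05) and NUP205 (0.02) did not pass, although the dimmer of 2 tested NUP205 probe sets rose by 0.31.

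NUP62, NUP54 and NUP58 form the repeat-bearing trimer of the central channel. NUP58 was at 7.33 and 7.36 in the mimic arrays and at 6.88 and 6.90 in the control arrays, and rose by 0.46 ± 0.057 (SE; limma adjusted p = 0.00678). NUP54 was at 8.70 and 8.71 in the mimic arrays and at 8.29 and 8.49 in the control arrays, and rose by 0.31 ± 0.085 (limma adjusted p = 0.0484). Their partner NUP62 was at 9.09 and 9.07 in the mimic arrays and 9.02 and 9.03 in the control arrays, a difference of 0.05 that did not pass. The 3 genes of the trimer thus had unlike values, with 95% intervals of 0.31 to 0.60 for NUP58, 0.09 to 0.53 for NUP54 and -0.09 to 0.20 for NUP62; the differences between these genes were not tested. Of the 12 tested probe sets of the trimer, 6 rose, where 14.5% of all probe sets tested were called higher. All 12 were positive, as were 15226 of the 31711 probe sets tested. The 12 belong to only 3 genes and are not independent within a gene. NUP54 lost its call in 4 of the 8 alternatives that keep all arrays, and NUP58 was at 0.08 without _s_at and _x_at probe sets.

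In the main test, no gene of the cytoplasmic face passed. Its 6 members, RANBP2, the Ran-binding filament protein and SUMO ligase (0.23), NUP88 (0.21), NUP214 (0.13), NUP98, whose transcript also encodes the scaffold protein NUP96 (0.05), the mRNA export factor RAE1 (0.02) and NUP42 (-0.26), had adjusted p-values of 0.0765 to 0.853 in limma, and 2 of them, RANBP2 and NUP88, were higher at an unadjusted p under 0.05. NUP42 was at 6.64 and 6.82 in the mimic arrays and at 6.89 and 7.09 in the control arrays. It alone among the 6 had its brightest probe set lower in both mimic arrays, as had 36.3% of all genes tested, and 2 of its 5 probe sets were positive. Single dimmer probe sets rose for RANBP2 (0.65), NUP214 (0.56) and NUP98 (0.37). Over the 8 alternatives that keep all arrays, RANBP2 was called higher in 3, and NUP88 and NUP214 in 1 each. NUP42 was called lower in 1, quantile normalization. RANBP2 shares sequence with the RGPD gene family, so its probe sets may not separate the copies.

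In the nuclear basket, 2 of 3 genes rose (66.7%, against 17.7% of all genes). NUP153, a mobile basket protein that binds importins, was at 7.48 and 7.36 in the mimic arrays and at 6.93 and 7.04 in the control arrays, a difference of 0.44 ± 0.076 (SE; limma adjusted p = 0.0156); its other, dim probe set gave 0.61 and did not pass. TPR, the coiled-coil strand of the basket, was at 7.67 and 7.63 in the mimic arrays and at 7.41 and 7.29 in the control arrays, a difference of 0.31 ± 0.069 (limma adjusted p = 0.0309). NUP50, a cofactor of import complex disassembly, was at 0.10 and did not pass, though 2 of its 7 probe sets rose, by 0.45 and 0.42. Of the 4 tested TPR probe sets 1 rose, and the others gave 0.10 to 0.53 and did not pass. The one closest in level to the brightest gave 0.10. TPR lost its call in 3 of the 8 alternatives that keep all arrays.

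Outside these groups, NUP62CL, a relative of NUP62, was at 6.57 and 6.41 in the mimic arrays and at 6.20 and 6.03 in the control arrays, and rose by 0.37 ± 0.094 (SE; limma adjusted p = 0.0409), a call lost after quantile normalization and without the filter on dim probe sets. AAAS, which encodes ALADIN, a partner of NDC1, was at 0.12, and the transcribed pseudogene NUP210P1 at -0.22; neither passed.

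**Figure D2:**
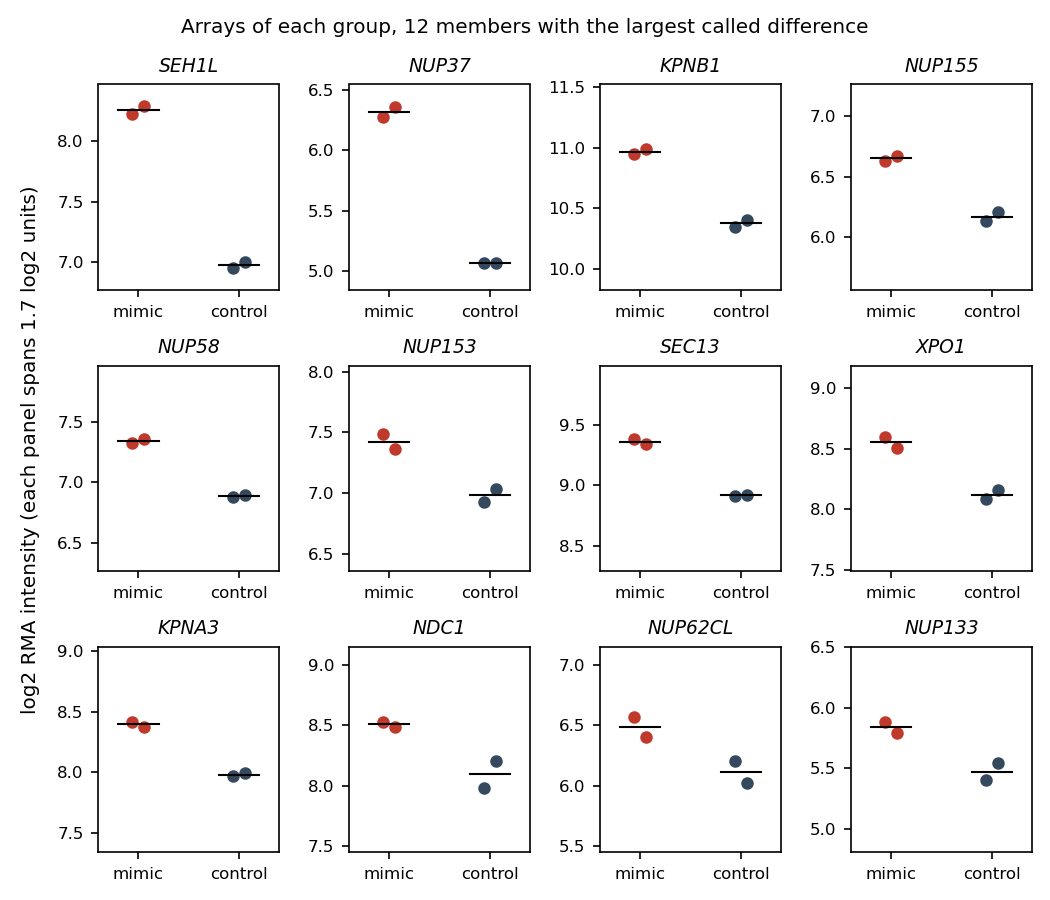
Log2 RMA intensity in each array (points) and group mean (bars) for the 12 members with the largest called differences, with mimic left of control and every panel spanning 1.7 log2 units. Mimic and control arrays do not overlap in any panel, which the choice of members by large called difference favours. The gap is widest for SEH1L (8.22 and 8.29 against 6.95 and 7.01).

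Among the transport receptors, KPNB1, importin beta, which carries most classical import cargo through the pore, was at 10.95 and 10.99 in the mimic arrays and at 10.35 and 10.41 in the control arrays. It rose by 0.59 ± 0.060 (SE), 1.50-fold (limma adjusted p = 0.00421). Of its 5 probe sets, 4 rose, by 0.57 to 0.60, and the remaining one gave 0.33 and did not pass.

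The importin alpha genes encode adaptors that bind the nuclear localization signal and hand the cargo to importin beta. KPNA3 and KPNA4 encode a closely related pair, and KPNA1, KPNA5 and KPNA6 form another subfamily. KPNA3 was at 8.42 and 8.38 in the mimic arrays and at 7.97 and 7.99 in the control arrays, and rose by 0.41 ± 0.058 (SE; limma adjusted p = 0.00909). KPNA4 was at 9.81 and 9.80 in the mimic arrays and at 9.43 and 9.48 in the control arrays, and rose by 0.35 ± 0.057 (limma adjusted p = 0.0136). All 2 probe sets of KPNA3 and all 3 of KPNA4 rose, with differences of 0.35 to 0.60.

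The other importin alpha genes among the members were lower or did not pass. KPNA5 was at 3.01 and 3.09 in the mimic arrays and at 3.36 and 3.47 in the control arrays, close to the dim level of 2.83, and fell by 0.36 ± 0.070 (SE; limma adjusted p = 0.0209). KPNA7 was at 4.72 and 4.84 in the mimic arrays and at 5.14 and 5.06 in the control arrays, and fell by 0.33 ± 0.071 (limma adjusted p = 0.0288). KPNA5 and KPNA7 had 1 probe set each. KPNA6 (-0.17 ± 0.060, adjusted p = 0.0921) and KPNA1 (-0.12 ± 0.070, adjusted p = 0.235) did not pass in limma. All 5 tested probe sets of each, which are not independent, were below 0. Their brightest ones were lower in both mimic arrays than in either control array, as were 36.3% of all genes tested. KPNA6 was called lower with quantile normalization and with the variance trend. The difference was above 0 for KPNA3 and KPNA4, and below 0 for KPNA1, KPNA5, KPNA6 and KPNA7, in each alternative in which the gene was tested, both scalings included. The difference between the subfamilies was not tested. KPNA2, another importin alpha gene, had no probe set of its own among those used, and is not in these counts. A probe set that KPNA2 shares with ARHGAP27P1 was higher in both mimic arrays than in either control array, by 0.68. It was not tested.

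Of the other importin beta relatives, which carry ribosomal proteins, histones and other cargo, IPO8 rose and IPO9 (0.16), IPO7 (0.07) and IPO5 (0.05) did not pass. IPO8 was at 6.31 and 6.38 in the mimic arrays and at 6.07 and 6.03 in the control arrays, a difference of 0.30 ± 0.060 (SE; limma adjusted p = 0.0241), and lost its call in 3 of the 8 alternatives that keep all arrays. Of the 3 tested IPO8 probe sets 1 rose, and the others gave 0.18 and -0.01 and did not pass. IPO5 probe sets disagreed: the brightest gave 0.05, at 8.97 and 9.01 in the mimic arrays and 8.90 and 8.97 in the control arrays, and another fell by 0.31, at 7.89 and 7.89 in the mimic arrays and 8.15 and 8.26 in the control arrays. The third IPO5 probe set gave -0.19 and did not pass (limma adjusted p = 0.129 over all probe sets), at 6.10 and 6.11 in the mimic arrays and 6.23 and 6.36 in the control arrays, so that 2 of 3 were below 0. IPO7 ranged from -0.19 to 0.27 over 4 probe sets.

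Among the 3 exportins, XPO1, the export receptor for leucine-rich export signals, was at 8.60 and 8.51 in the mimic arrays and at 8.09 and 8.16 in the control arrays. It rose by 0.43 ± 0.066 (SE), 1.35-fold (limma adjusted p = 0.0118), and all 4 of its probe sets rose, by 0.26 to 0.51. XPO7 (0.09) and CSE1L, which returns importin alpha to the cytoplasm (0.04), did not pass, with 95% intervals of -0.06 to 0.25 and -0.11 to 0.20. RAN was at 10.88 and 10.86 in the mimic arrays and at 10.60 and 10.75 in the control arrays, a difference of 0.20 ± 0.074 that did not pass (limma adjusted p = 0.104), with a 95% interval of 0.01 to 0.38 before adjustment.

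Over probe sets, which are not independent within a gene, 41 of 134 member probe sets rose, 3 fell and 90 did not pass (limma over 31711 probe sets). The shares, 30.6% and 2.24%, stand against a background of 14.5% higher and 7.95% lower, with 22.4% called in either direction. Of the 35 members with 2 or more tested probe sets, 24 had all of them on the same side of 0 and 11 did not, and 0 had probe sets called in both directions. In 5 members, NUP37, KPNA3, KPNA4, XPO1 and NDC1, every tested probe set rose. In 5 of the 16 members that rose, SEH1L, SEC13, NUP58, TPR and IPO8, a tested probe set gave under 50% of the difference of the brightest one. Conversely, 7 members that did not pass in the gene test had a probe set that rose (NUP43, NUP50, NUP98, NUP205, NUP214, RANBP2 and XPO7).

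**Figure D3:**
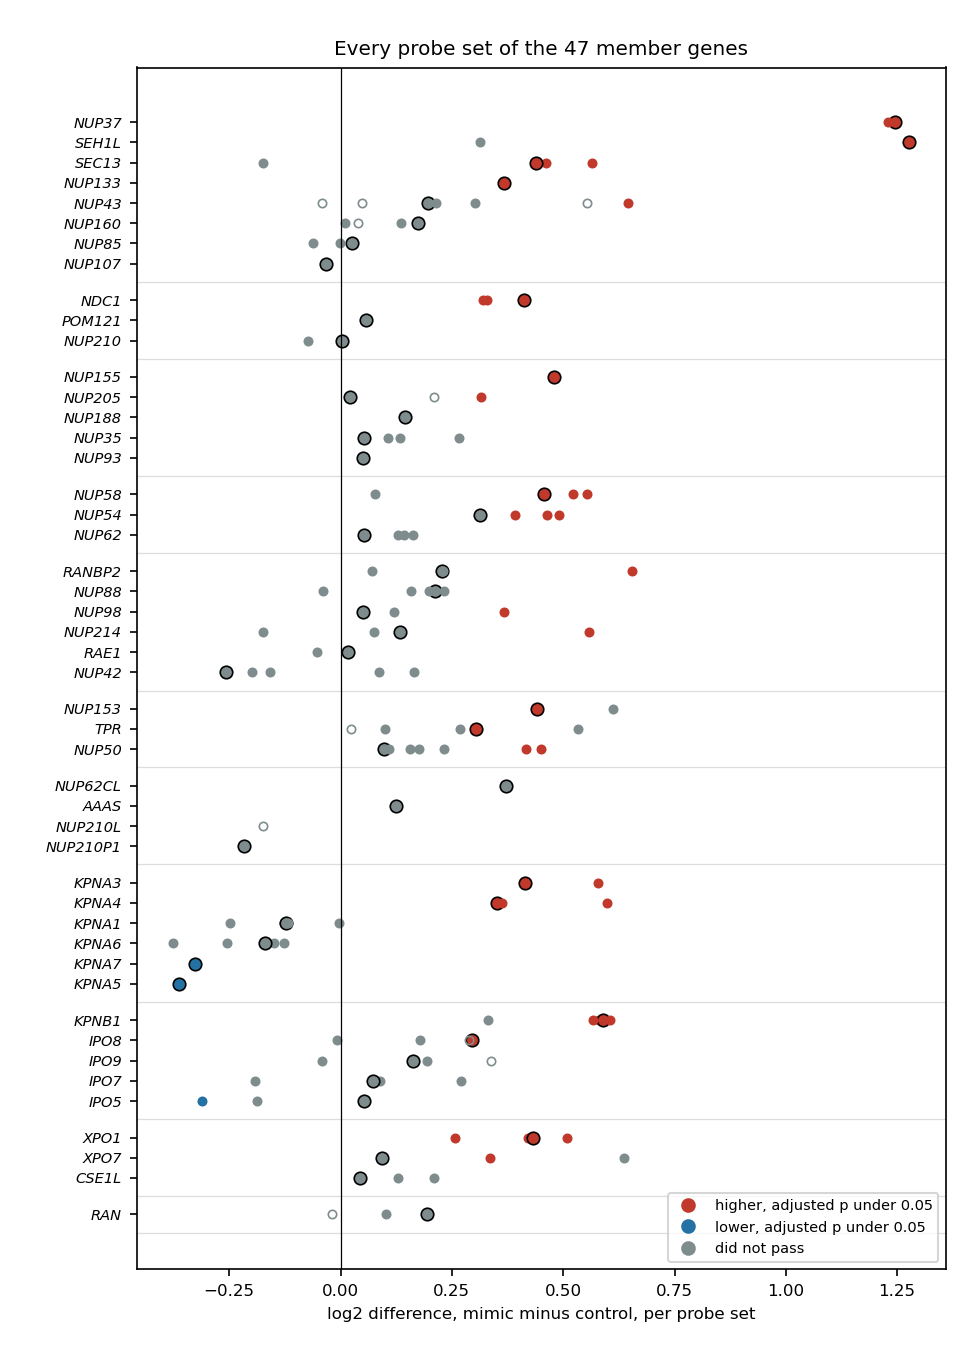
Log2 difference, mimic minus control, of all 144 member probe sets, 1 row per gene and genes grouped by role; large outlined points are the brightest probe set of a gene and open points were too dim to be tested. The 2 NUP37 probe sets coincide near 1.2, the 2 of SEH1L lie at 1.28 and 0.31, and the KPNA1 and KPNA6 probe sets all lie below 0.

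Related genes that the rule leaves out were read from 4 lists. The background was the same, 30.1% of all genes called in either direction and 17.7% called higher. Of 17 tested transport receptors and Ran cycle genes, 3 rose and 0 fell (17.6%, close to the 17.7% called higher over all genes), with a median of 0.12. They were XPOT, the tRNA exportin (0.35 ± 0.078 SE), RCC1, the chromatin-bound exchange factor that charges Ran with GTP (0.35 ± 0.091), and TNPO1, transportin (0.24 ± 0.056). RCC1 had another probe set at -0.06, and those of TNPO1 ranged from 0.01 to 0.43. Of 12 tested pore partners, 3 rose and 0 fell (25.0%), with a median of 0.13. AHCTF1, the chromatin-binding protein ELYS that brings the Y complex to chromosomes, was at 6.94 and 6.90 in the mimic arrays and at 6.40 and 6.23 in the control arrays, and rose by 0.61 ± 0.078 (limma adjusted p = 0.0074), with its other probe set at 0.03. MAD2L1, a spindle checkpoint protein that is bound to pores in interphase through its partner, rose by 1.11 ± 0.080, and SENP1, a SUMO protease found at pores, by 0.56 ± 0.090. The other SENP1 probe set was at 0.10.

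Lamina and inner nuclear membrane genes, which encode the layer that the pore is embedded beside, had a median of 0.24: of 16 tested, 7 rose and 0 fell (43.8%), a share not tested against the background. TMPO, the lamina-associated protein LAP2, was at 5.90 and 5.91 in the mimic arrays and at 4.72 and 4.87 in the control arrays, and rose by 1.10 ± 0.073 (SE; limma adjusted p = 0.00165). All 6 TMPO probe sets rose, by 0.50 to 1.10. LMNB1 rose by 0.80 ± 0.12, with 2 of its 3 probe sets called. LMNB2, the other B-type lamin gene, rose by 0.78 ± 0.10 and ANKLE2 by 0.45 ± 0.065, while LMNA, the A-type lamin gene, named after its value was seen, did not pass at 0.01 with a 95% interval of -0.15 to 0.16. LMNB2 had 1 of its 2 probe sets called, and ANKLE2 had 2 of 4 called, with the lowest at -0.001. Of 16 tested mRNA export genes, 3 rose and 0 fell (18.8%, close to the 17.7% called higher over all genes), with a median of 0.06. They were ALYREF, the adaptor of the TREX complex (0.53 ± 0.097), the TREX subunit gene THOC6 (0.45 ± 0.084) and the helicase gene DDX39A (0.36 ± 0.077). At an unadjusted p under 0.05 in limma, 1 pore partner (POM121L2, -0.42) and 1 mRNA export gene (DDX19B, -0.38) were lower, and 0 genes of the other two lists; these were named after their values were seen. POM121L2 was dim, at 2.97 and 3.31 in the mimic arrays, and its other probe set was at 0.16.

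**Figure D4:**
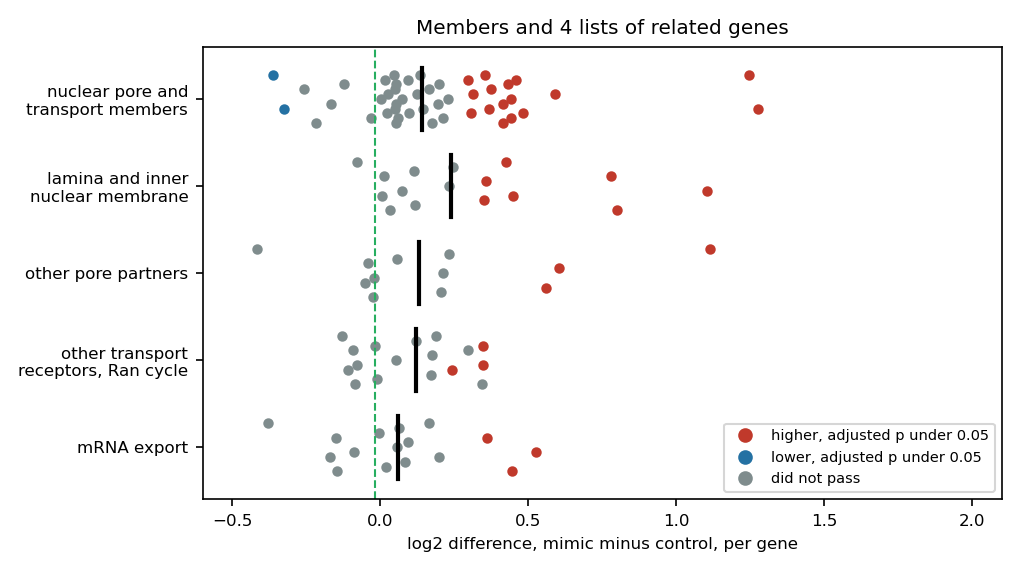
Log2 difference, mimic minus control, of each tested gene (points, spread vertically for legibility only) in the members and in 4 lists of related genes, with the median of each list as a black bar and that of all 14340 genes as a dashed line. The medians are 0.14 for the members, 0.24 for lamina and inner membrane genes, 0.13 for pore partners, 0.12 for other transport receptors and 0.06 for mRNA export genes.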

How the data were processed

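Total RNA of 4 samples (2 mimic, 2 control) was measured on 1-colour Affymetrix arrays from 2 µg of RNA, per the labels' protocols. The deposited values are 1 intensity per probe set and array, made by the authors with RMA per the submitters' processing notes; the software and its settings are not stated in those sources. The intensities were linear (1.62 to 11401), so log2 was taken. Probe sets with 1 gene symbol (44988 of 49293) were used, and 44961 were renamed through RefSeq identifiers of GRCh38.p14.

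Groups were compared in R 4.3.3 by limma 3.58.1, with moderated variances and without a replicate block, adjusted over all genes (1 probe set per gene, the brightest) or over all probe sets, after the lowest 30% of probe sets by mean level were left out. SE and intervals are limma's, with 4.98 degrees of freedom for genes. Both fits were run on simulated arrays with independent errors and variances drawn as limma assumes. Such data cannot show whether the spread between the real arrays is only technical. With 2 arrays a group, the smallest two-sided p of an exact permutation test is 0.333, so none is given for single genes. The number of arrays limits the precision. No detection calls were used, so a dim value cannot be told from background.

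Genes with values in the text were taken by rule: members called with a difference of 0.5 or more, all transport receptors and RAN, the highest and lowest member of each role, values per array for the 12 largest calls, and up to 4 called genes per related list; the remaining members were added so that each is accounted for, and LMNA, TNPO2, POM121L2 and DDX19B were added after their values were seen. The members and lists were chosen with earlier results of these data known. Alternatives were 2 scalings, 2 filters, 2 probe set choices, a moderated variance trend, a replicate block and leaving out each array. Comparing importin alpha proteins was planned and is not analysed here.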

Additional observations from a re-analysis of the deposited data

Results flagged for a closer look

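Probe sets that the annotation assigns to several genes were outside the comparison, and 7 of them include a member symbol. In 3 of these both mimic arrays lay above both control arrays, which is why they are given here; none was tested. In 2 others, both of POM121 and its copies, both mimic arrays lay below both control arrays. Such separation was common: of all genes tested, 34.2% had mimic wholly above and 36.3% wholly below control. The probe set shared by KPNA2, an importin alpha gene, and ARHGAP27P1 was at 10.90 and 10.94 in the mimic arrays, against 10.15 and 10.33 in the control arrays, a difference of 0.68. A probe set of POM121 and POM121C was at 7.46 and 7.50 in the mimic arrays, against 7.41 and 7.35 in the control arrays (0.10). One of POM121, POMZP3 and POM121C was at 6.30 and 6.30 in the mimic arrays, against 6.00 and 6.24 in the control arrays (0.18). Of the 2 that were lower, the one shared by POM121, POM121C and POM121B was at 4.14 and 4.25 in the mimic arrays, against 4.46 and 4.46 in the control arrays (-0.27). The other, of POM121 and POM121C, was at 3.97 and 3.98 in the mimic arrays, against 4.21 and 4.26 in the control arrays (-0.26).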

How the results depend on the processing

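The groups share replicate numbers, but nothing says that a number marks a shared culture or day, and deviations of same-numbered arrays did not go together (r = -0.002 across probe sets). With the replicate block, 11 members rose and 1 fell, 22 member probe sets rose and 0 fell in limma (7 were lower at an unadjusted p under 0.05), and 979 of all genes fell; the members no longer called were IPO8, KPNA7, NDC1, NUP133, NUP54 and TPR. After quantile normalization, 4 members and 6 member probe sets fell. With the lowest 50% left out, 1 member fell (KPNA5 was no longer tested). Without the filter, 0 member probe sets fell in limma (5 at an unadjusted p under 0.05), and with a variance trend 5 did. Without _s_at and _x_at probe sets, fewer were tested and 23 member probe sets rose; SEC13 was then at -0.17. With the median over probe sets IPO5 fell, at -0.31. Beyond the construction of a setting, the cause was not tested. On leaving out an array, limma called 0 to 3 members higher and 0 lower, 0 member probe sets in either direction, and 0 to 796 genes higher and 0 to 167 lower; 13 to 20 members were higher and 2 to 5 lower at an unadjusted p under 0.05, and 40 to 54 member probe sets were higher and 2 to 10 lower. The median over the members was above 0 in each setting, from 0.04 to 0.19. Of the 18 called members, 14 were called with quantile normalization, 18 with median centring, 16 without the filter, 17 with the stricter filter, 12 with the block, 18 with the trend, 16 with the median over probe sets and 15 without _s_at and _x_at probe sets. Apart from IPO5, other members gained a call in these settings: RANBP2 and NUP43 in 3, NUP50 and KPNA6 in 2, and NUP88, RAN, NUP214, XPO7 and NUP42 in 1. Signal over background limits KPNA5, NUP210 and NUP210P1, which were dim.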

Other observations

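Of the remaining probe sets assigned to several genes, the one shared by RANBP2 and the RGPD genes was at 4.15 and 4.21 in the mimic arrays, against 4.26 and 3.87 in the control arrays, with overlapping groups. The remaining one, of POM121 and POM121C, gave 0.02 with overlapping groups, so that the 5 probe sets of these near-identical genes lay on both sides of 0. TNPO2, a transportin gene of the list of other transport receptors, did not pass in its brightest probe set (-0.13), while 2 of its 3 probe sets fell; this gene was named after its values were seen.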
